A study of Mus musculus with 6 samples.

Results

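The plasminogen activation system and the tissue inhibitors of metalloproteinases (TIMPs) were examined in mouse bone marrow-derived macrophages given IL-4 alone or IL-4 together with CGRP. Members were the 8 genes picked by name from the count table, which holds 57180 genes: the activators Plau and Plat, the receptor Plaur, the serpins Serpinb2 and Serpinb6b, and Timp1, Timp2 and Timp3. All 8 names matched 1 row each, and 7 passed the filter on low counts that left 13260 genes to test; Plat did not. Marrow cells from the femurs and tibias of wild-type (WT) mice aged 6 to 8 weeks had been grown in M-CSF at 20 ng/mL for 7 days. The cultures then received IL-4 (20 ng/mL), a cytokine of alternative activation, or IL-4+CGRP, for 24 h, with 3 libraries a group. CGRP is a neuropeptide of sensory nerves whose receptor raises cyclic AMP; its concentration is left out, since the labels do not state it unambiguously. Every culture received M-CSF and IL-4, so neither the response to IL-4 nor CGRP without IL-4 was measured, and the sources used here give neither strain nor sex. The labels do not say whether the 3 libraries of a group are separate cultures or separate mice. The p-values therefore cover only how far these samples vary, and that variation may be technical.

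Plasminogen is a circulating zymogen that is cut to the fibrin-degrading protease plasmin by urokinase (the product of Plau) or tissue-type activator (Plat). Urokinase is held at the cell surface by its receptor (Plaur), and serpins such as the product of Serpinb2 block it. Plasmin can activate matrix metalloproteinases, which TIMPs bind and inhibit. Macrophages use this chain of proteases to cross and remodel matrix.

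Timp1 was the member that rose, from 2.51 ± 0.413 to 4.87 ± 1.08 CPM (CPM, counts scaled by the TMM-adjusted library total; SD, n = 3 in each group). Serpinb6b, an intracellular clade B serpin, fell from 13.9 ± 0.327 to 10.8 ± 0.412 CPM (SD, n = 3). The other 5 tested members, among them the abundant Timp2 and Plau, did not pass the threshold of 0.05 on the edgeR adjusted p. So 1 of 7 tested members was called higher, against 2.32% of all tested genes, and 1 was called lower, against 1.54% (3.85% in either direction). With 1 gene in each direction, these counts are no result about the members as a group. The levels of the 2 groups did not overlap for 5 of the 7, against 21.0% of all tested genes. Timp1 and Serpinb2 were higher in this sense (11.1% of all tested genes were), and Plau, Plaur and Serpinb6b lower (9.92%).

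The RefSeq table of start sites (build GRCm38.p6, while the counts use GRCm39) held 7 windows for 6 members, none of them for Plau or Plat. The 250 bases before the start are shown for the 3 members with the smallest p-values, to set the sequence upstream of the gene that rose beside those with lower counts. Capitals mark matches on either strand to TGACGTCA (the cyclic AMP response element), TGACG (its half-site, also inside the full element), TGANTCA (AP-1), TTC and GAA with any 4 bases between them (the spacing bound by STAT6) or TATAAA. The windows lie at chrX:20869916-20870165, chr13:32965011-32965260 and chr7:24462233-24462482, all on the plus strand and printed 5′ to 3′.
Timp1: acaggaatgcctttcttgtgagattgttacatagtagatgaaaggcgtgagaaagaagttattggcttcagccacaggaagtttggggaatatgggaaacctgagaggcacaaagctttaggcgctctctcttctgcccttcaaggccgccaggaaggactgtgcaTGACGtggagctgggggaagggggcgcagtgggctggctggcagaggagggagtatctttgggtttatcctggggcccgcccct
Serpinb6b: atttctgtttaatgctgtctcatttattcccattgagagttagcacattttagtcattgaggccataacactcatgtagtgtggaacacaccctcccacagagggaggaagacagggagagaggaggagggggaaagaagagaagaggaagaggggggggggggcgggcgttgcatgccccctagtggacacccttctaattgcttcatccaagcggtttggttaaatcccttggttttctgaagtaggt
Plaur: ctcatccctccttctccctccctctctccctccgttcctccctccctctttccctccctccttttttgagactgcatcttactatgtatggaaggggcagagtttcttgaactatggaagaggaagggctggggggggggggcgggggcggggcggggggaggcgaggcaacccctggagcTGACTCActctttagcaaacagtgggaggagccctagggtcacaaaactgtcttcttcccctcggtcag

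The Timp1 window held a TGACG half-site from 84 to 80 bases before the start, a motif present in 17.8% of 32851 windows of the same length. The Plaur window held an AP-1 match from 69 to 63 bases before the start (6.75% of windows), and the Serpinb6b window held none of the 5 motifs. Both Serpinb2 windows, which belong to alternative starts and overlap, held the same AP-1 match and the same TATAAA. Neither the full cyclic AMP element (1.55% of windows) nor the STAT6 spacing (5.85%) occurred in any window of a member. These are letter matches in short windows, and binding was not measured.

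**Figure D1:**
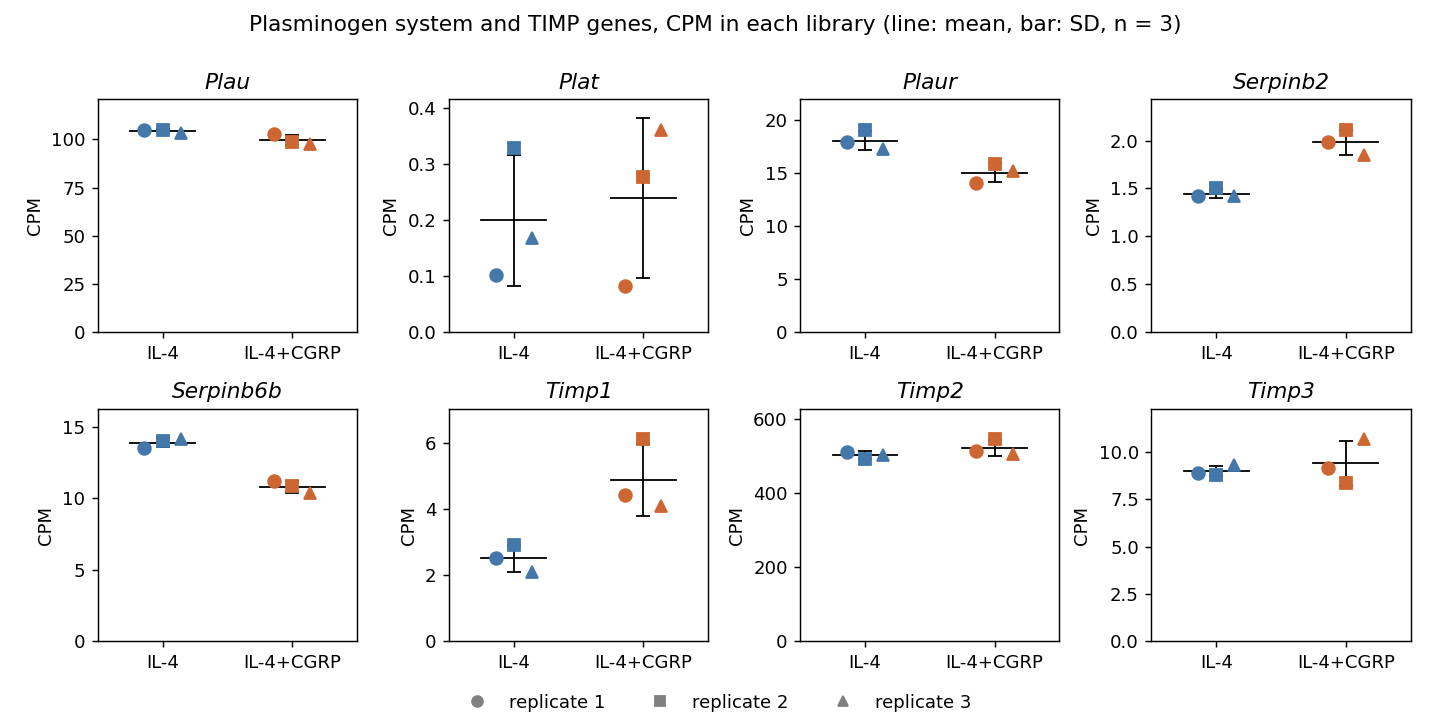
CPM of the 8 members (y axis, linear from 0, own scale for each gene) in the IL-4 and IL-4+CGRP libraries. Points are libraries, with the shape giving the replicate number; lines are means and bars SDs (n = 3). The Timp1 points of IL-4+CGRP all lie above those of IL-4, with replicate 2 the highest, and the Serpinb6b points all lie below.

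Plau (ENSMUSG00000021822), which encodes urokinase, measured 105, 105 and 104 CPM in IL-4 replicates 1 to 3 and 103, 98.4 and 97.8 CPM in IL-4+CGRP replicates 1 to 3. Every IL-4+CGRP library was below every IL-4 library, but by little: the log2 fold change was -0.07 ± 0.05 (SE), with an edgeR adjusted p = 0.56. The 95% interval of the fold ran from 0.883 to 1.03.

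Plat (ENSMUSG00000031538), the tissue-type activator best known from endothelial cells, was counted 2, 7 and 4 times with IL-4 alone and 2, 6 and 8 times with CGRP added. The groups overlapped, and the depth (1 count was worth 0.0413 to 0.0506 CPM) was too low to compare them. Both activators were counted in every library, Plat at a few counts.

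Plaur (ENSMUSG00000046223), the GPI-anchored urokinase receptor, measured 17.9, 19.1 and 17.2 CPM with IL-4 and 14.03, 15.8 and 15.1 CPM with IL-4+CGRP. The groups did not overlap, and the log2 fold change was -0.27 ± 0.09 (SE), with a 95% interval of the fold of 0.726 to 0.951 and an edgeR adjusted p = 0.15. At an unadjusted p = 0.011 it ranked at 1002 among all tested genes, outside the calls. Without IL-4+CGRP replicate 2 it passed (log2 fold change -0.31, edgeR adjusted p = 0.040), and it passed without that library and IL-4 replicate 1 (adjusted p = 0.031). Over all genes, the first of these fits called 915 higher and 950 lower of 13492, and the second 1066 and 1187 of 13370. Plaur did not pass in the other 15 alternatives, where the highest edgeR adjusted p was 0.44, without IL-4+CGRP replicate 1.

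The ratio of Plau to Plaur within a library does not depend on how libraries are scaled. Per kilobase of the deposited gene length, it was 3.78, 3.54 and 3.87 with IL-4 and 4.70, 3.996 and 4.15 with IL-4+CGRP. Plau mRNA thus exceeded Plaur mRNA in every library. The ratio was higher in each IL-4+CGRP library than in any IL-4 library, and no test was made of it. Ratios of genes of unlike length can still carry a library's trend of log2 CPM on gene length, which was not removed from them. In IL-4 replicate 1 and IL-4+CGRP replicate 3 that trend stood at 0.048 and -0.058 for Plaur, and at -0.015 and -0.00061 for Plau.

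Serpinb2 (ENSMUSG00000062345) encodes plasminogen activator inhibitor 2, much of which stays inside the cell. It was scarce, with counts of 28, 32 and 34 under IL-4 against 48, 46 and 41 with CGRP added. These came to 1.42, 1.502 and 1.42 CPM against 1.98, 2.11 and 1.85 CPM. The groups did not overlap, yet the log2 fold change of 0.45 ± 0.21 (SE) did not pass (edgeR adjusted p = 0.33), and the 95% interval of the fold reached from 0.989 to 1.89. The spread within groups was smaller than counting alone gives (0.188 and 0.449 of the counting SD), so the tightness of 3 values is no measure of their precision.

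Serpinb6b (ENSMUSG00000042842), one of the mouse copies of the Serpinb6 family, measured 13.5, 14.0 and 14.1 CPM with IL-4 and 11.2, 10.8 and 10.4 CPM with IL-4+CGRP. Every IL-4+CGRP library was lower, and the gene fell 1.29-fold (log2 fold change -0.36 ± 0.09, SE; edgeR adjusted p = 0.047). The spread within groups was again smaller than counting alone gives (0.408 and 0.598 of the counting SD), so its tightness is no measure of precision. The call sat at the edge of the threshold: over all alternatives the log2 fold change stayed between -0.39 and -0.34, while the adjusted p ran from 0.016 to 0.18. It was lost under library totals alone (adjusted p = 0.069), upper quartile factors (adjusted p = 0.054), limma-voom (adjusted p = 0.051), DESeq2 (adjusted p = 0.13) and a non-robust dispersion fit (adjusted p = 0.052). It was also lost without any 1 library except IL-4+CGRP replicate 2.

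Its close relative Serpinb6a, the widely expressed member of that family, stood at 382 ± 12.9 and 364 ± 16.4 CPM (SD, n = 3; log2 fold change -0.07 ± 0.05, SE; edgeR adjusted p = 0.53). The ratio of Serpinb6a to Serpinb6b per kilobase was 42.9, 39.2 and 38.6 with IL-4 and 47.8, 50.9 and 48.7 with IL-4+CGRP, without overlap. The longest match of the Serpinb6b transcript to another gene was 1180 bases of Serpinb6c at 86.5% identity, and Serpinb6c had 0 counts in every library. No alignment of the Serpinb6b transcript to another gene's transcript reached 95% identity over at least 75 bases. Each alignment was scored as a whole, so closer stretches inside longer alignments would be missed. Whether reads were shared between the copies was not tested.

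Timp1 (ENSMUSG00000001131) encodes a secreted inhibitor of most matrix metalloproteinases that is inducible in many cell types. It had 50, 62 and 50 counts with IL-4 and 107, 133 and 91 with IL-4+CGRP, or 2.53, 2.91 and 2.09 CPM against 4.42, 6.11 and 4.10 CPM. All 3 IL-4+CGRP libraries were above all 3 IL-4 libraries, and replicate 2 of IL-4+CGRP was the highest. The gene rose 1.94-fold (log2 fold change 0.96 ± 0.20, SE; 95% interval of the fold 1.44 to 2.63; edgeR adjusted p = 0.020). The spread in IL-4+CGRP was 2.32 times the counting SD, and in IL-4 1.21 times.

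The increase in Timp1 was smaller without IL-4+CGRP replicate 2 (log2 fold change 0.77, edgeR adjusted p = 0.013) and kept its direction in every alternative, from 0.77 to 1.08. The call ended without IL-4 replicate 1 (adjusted p = 0.073), 2 (adjusted p = 0.058) or 3 (adjusted p = 0.12). At 833 bases Timp1 is short, with 5.54% of tested genes shorter. Short genes ran high in IL-4 replicate 1 and IL-4+CGRP replicate 2: at the length of Timp1, the trend of log2 CPM on length stood at 0.18 and 0.16 in those libraries, and at -0.15 and -0.16 in IL-4+CGRP replicates 1 and 3. With that trend removed from each library, the log2 fold change of Timp1 was 1.05 (edgeR adjusted p = 0.0015).

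In the mouse annotation Timp1 lies inside Syn1, and Timp3 inside Syn3, each on the other strand. The library kit keeps strand, but the sources used here do not say whether the counting used it. Syn1 measured 23.0 CPM with IL-4 and 21.1 CPM with IL-4+CGRP (log2 fold change -0.13 ± 0.08, SE; edgeR adjusted p = 0.52). Syn3 had between 2 and 12 counts in a library. The Timp3 transcript matched a Syn3 transcript at 100% identity over 1733 bases. Timp3 was the only member with an alignment to another gene at 95% identity over at least 75 bases, scored over the whole alignment.

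Timp2 (ENSMUSG00000017466), which besides inhibiting metalloproteinases takes part in the activation of pro-MMP2 by MMP14 at the cell surface, was the most abundant member. It measured 513, 491 and 504 CPM with IL-4 and 513, 546 and 507 CPM with IL-4+CGRP, and the groups overlapped. The log2 fold change was 0.05 ± 0.05 (SE; edgeR adjusted p = 0.62), with a 95% interval of the fold from 0.969 to 1.11.

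Timp3 (ENSMUSG00000020044), which binds the extracellular matrix and also inhibits ADAM17, measured 8.91, 8.78 and 9.30 CPM with IL-4. With IL-4+CGRP it measured 9.16, 8.36 and 10.7 CPM, so that the libraries of this group lay both below and above those of IL-4. The log2 fold change was 0.06 ± 0.11 (SE; edgeR adjusted p = 0.83; 95% interval of the fold 0.879 to 1.24), and its sign turned to -0.04 without IL-4+CGRP replicate 3.

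**Figure D2:**
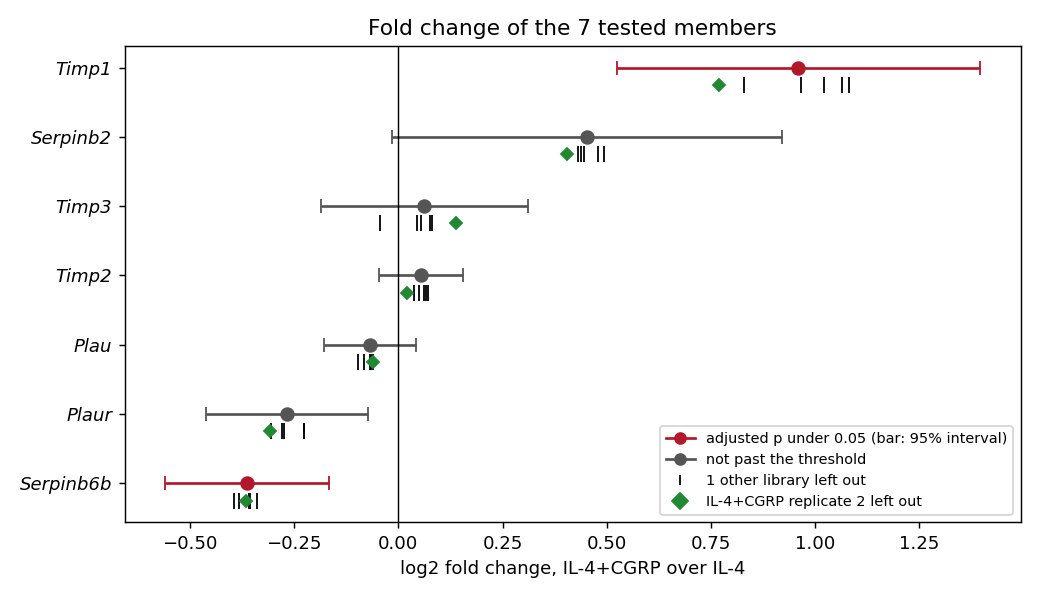
Log2 fold change of IL-4+CGRP over IL-4 (x axis) for the 7 tested members, with 95% intervals from the edgeR fit. Small marks below each give the value with 1 library left out, and diamonds that without IL-4+CGRP replicate 2. Timp1 stands at 0.96 and Serpinb6b at -0.36, both past the threshold; the interval of Plaur lies below 0, but its adjusted p was 0.15.

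Per kilobase of gene length, the members kept nearly the same order in both groups. With IL-4 the means were 135 CPM per kilobase for Timp2, 44.6 for Plau, 12.0 for Plaur, 6.33 for Serpinb6b, 3.01 for Timp1, 1.90 for Timp3, 0.734 for Serpinb2 and 0.0788 for Plat, and no neighbours in this order overlapped in their libraries. With IL-4+CGRP, Timp1 (5.85 ± 1.296 CPM per kilobase; SD, n = 3) stood above Serpinb6b (4.92 ± 0.188), but their libraries overlapped, and the other positions were unchanged. Timp2 thus made up nearly all TIMP mRNA. Its share of the summed level per kilobase of the 3 TIMPs was 96.6%, 96.1% and 96.8% with IL-4 and 95.01%, 94.2% and 94.996% with IL-4+CGRP. The share of Timp1 was 2.13%, 2.54% and 1.79% with IL-4 and 3.65%, 4.70% and 3.43% with IL-4+CGRP, again without overlap.

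**Figure D3:**
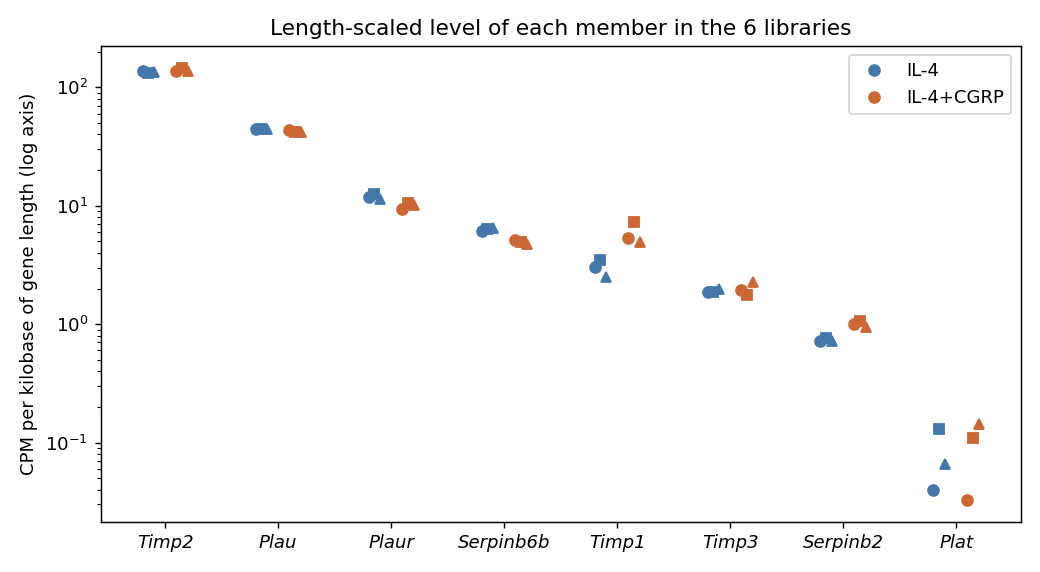
Level of each member in CPM per kilobase of gene length (log y axis), in order of the IL-4 mean. Each point is a library, coloured by group and shaped by replicate number. Timp2 lies highest, Plat lowest, and Timp1 passes from below Serpinb6b in IL-4 to a range that overlaps it in IL-4+CGRP.

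Partner genes were taken from 6 lists holding 91 genes, of which 50 were tested. Of these 8 rose and 5 fell, beside 2.32% and 1.54% of all tested genes. The median log2 fold change of the 50 was 0.0041 beside -0.0042 over all tested genes. Plasminogen itself (Plg), which the liver makes, had 0 counts in every library, which allows up to 3 counts, or 0.124 to 0.152 CPM, in a library (counting error only). Of 6 tested plasminogen-binding genes 1 fell and 0 rose (1.54% and 2.32% of all tested genes). This was Anxa2 (annexin A2, which with S100A10 binds plasminogen and tissue-type activator at the surface), which went from 338 ± 3.19 down to 287 ± 10.8 CPM (SD, n = 3), 1.18-fold lower (edgeR adjusted p = 0.015). The call ended without any 1 library except IL-4+CGRP replicate 2. The plasminogen receptor gene Plgrkt stood at 39.8 ± 2.25 with IL-4 and 42.6 ± 0.883 CPM with IL-4+CGRP (SD, n = 3), and its edgeR adjusted p = 0.52.

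Of the list of other inhibitors of the activators and of plasmin 3 genes were tested. Of these 0 were called by edgeR, DESeq2 or limma-voom (0 at an unadjusted p under 0.05). The 3 included Thbd (thrombomodulin), which is not itself such an inhibitor (log2 fold change 0.0005 ± 0.0857, SE). Serpini1 (neuroserpin, an inhibitor of tissue-type activator) had 5 to 20 counts in a library, with a log2 fold change of -0.35 ± 0.50 (SE; edgeR adjusted p = 0.79). Serpine2 (protease nexin 1, which inhibits thrombin and urokinase) measured 2.83, 3.61 and 3.80 CPM with IL-4 and 4.13, 2.53 and 3.65 CPM with IL-4+CGRP. Its groups overlapped (log2 fold change 0.01 ± 0.20, SE; edgeR adjusted p = 0.99; 95% interval of the fold 0.737 to 1.37).

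Among 13 tested partners and clearance receptors of urokinase and its receptor, 2 rose and 2 fell (2.32% and 1.54% of all tested genes). Itgam, the CD11b chain of the integrin Mac-1 that pairs with the urokinase receptor, rose 1.33-fold (edgeR adjusted p = 0.0012), while Itgb2, its CD18 partner chain, fell 1.12-fold (edgeR adjusted p = 0.049). Sorl1, a sorting receptor that binds urokinase and its inhibitor complexes, rose 1.27-fold (edgeR adjusted p = 0.0092), and Itga5, the fibronectin receptor chain, fell 1.18-fold (edgeR adjusted p = 0.030). Lrp1, the endocytic receptor that clears inhibited urokinase, measured 1573 ± 93.8 against 1333 ± 133 CPM (SD, n = 3), with an edgeR adjusted p = 0.15. With the length trend removed Lrp1 was called lower (log2 fold change -0.35, edgeR adjusted p = 1.5e-05), as it was with no count filter or without IL-4+CGRP replicate 3. The Itgb2 call ended under 12 of 17 alternatives, the Itga5 call under 7 and the Sorl1 call under 3.

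Of 22 other clade B serpins 6 were tested and 0 called by edgeR. The smallest p-value was that of Serpinb1c (log2 fold change -0.56 ± 0.17, SE; edgeR adjusted p = 0.10). It was the 1 gene of the 6 at an unadjusted p under 0.05 and the 1 called with no count filter (edgeR adjusted p = 0.0497). Serpinb9 followed (log2 fold change -0.15 ± 0.07, SE; edgeR adjusted p = 0.32). DESeq2 called 0 of the 6, and so did limma-voom.

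Of 18 tested metalloproteinases of the MMP, ADAM and ADAMTS families 5 rose and 1 fell, beside 2.32% and 1.54% of all tested genes, and their median log2 fold change was 0.21 beside -0.0042. Mmp8, a collagenase, rose 2.52-fold (edgeR adjusted p = 5.4e-06), Mmp27 1.41-fold (edgeR adjusted p = 5.4e-04), and Mmp14, the membrane protease that works with Timp2, 1.296-fold (edgeR adjusted p = 0.0020). Mmp12 (macrophage elastase) fell 1.34-fold (edgeR adjusted p = 5.9e-04), and the remaining calls were Mmp13 and Mmp25, both higher. The Mmp13 call was lost without IL-4 replicate 2 (edgeR adjusted p = 0.061). Mmp9 (gelatinase B), a partner of Timp1, stood at 2.01 ± 0.805 with IL-4 and 1.96 ± 0.0235 CPM with IL-4+CGRP (SD, n = 3; edgeR adjusted p = 0.98), and Adam17, a target of Timp3, 189 ± 1.49 and 179 ± 7.33 CPM (SD, n = 3; edgeR adjusted p = 0.52). Per kilobase, the ratio of Mmp14 to Timp2 was 0.204, 0.228 and 0.220 with IL-4 and 0.272, 0.255 and 0.287 with IL-4+CGRP, without overlap. The ratio of Mmp8 to Timp1 was 2.34, 2.01 and 2.81 with IL-4 and 3.68, 2.14 and 3.68 with IL-4+CGRP, and there the groups overlapped.

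Among 6 tested genes of other metalloproteinase inhibitors and TIMP-binding membrane proteins 1 rose and 1 fell (2.32% and 1.54% of all tested genes). Cd74, the invariant chain, which can also bind TIMP-1, fell 1.29-fold (edgeR adjusted p = 1.6e-04). Kdr, the VEGF receptor that Timp3 can block, rose 1.23-fold (edgeR adjusted p = 0.046), a call that ended under 9 of 17 alternatives. Timp4 had 0 counts in every library.

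**Figure D4:**
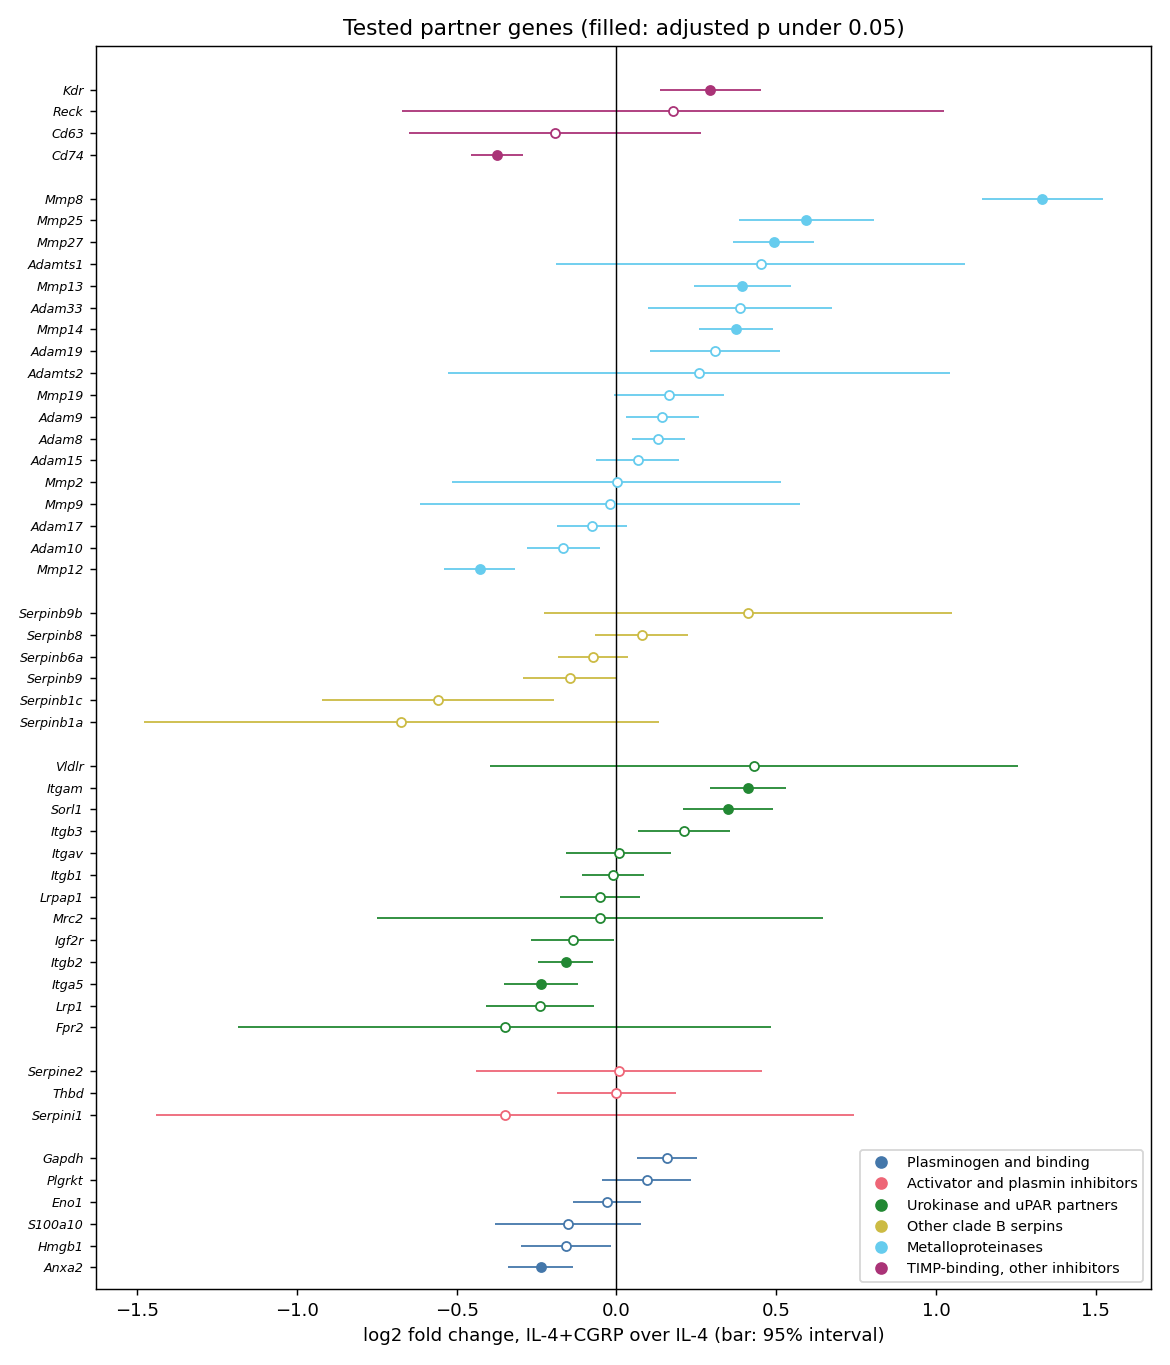
Log2 fold change of IL-4+CGRP over IL-4 (x axis) with its 95% interval for the 50 tested partner genes, coloured by list, each gene drawn once; filled points passed an edgeR adjusted p of 0.05. Mmp8 lies farthest to the right among the filled points, at 1.33, and Mmp12 farthest to the left, at -0.43.

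The tested genes whose profile over the 6 libraries lay nearest to Timp1 were Ccl24, Rab44 and Pf4, out of 10345 whose mean log2 CPM was 1 or more. Likeness was the root mean square difference of log2 CPM after each gene's own mean was removed, which was 0.12, 0.12 and 0.16. Their log2 fold changes were 1.00, 0.95 and 0.99, and Pf4 did not pass the test (edgeR adjusted p = 0.059). Nearest to Serpinb6b were Gpc1, Serpina3f and Coq7, at 0.03, 0.03 and 0.04, with log2 fold changes of -0.32, -0.31 and -0.33, and Coq7 did not pass (edgeR adjusted p = 0.22).

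Library totals ran from 20088895 to 24060444 counts. IL-4+CGRP replicate 2 stood apart from its group, at -0.17 on the first principal component (37.6% of variance) where replicates 1 and 3 lay at 22.0 and 27.0 and the IL-4 libraries between -26.0 and -11.2. Macrophage markers summed to 16770 to 17077 CPM with IL-4 and 16469 to 17337 CPM with IL-4+CGRP, and 0 of 8 were called by edgeR, DESeq2 or limma-voom (4 at an unadjusted p under 0.05). Fibroblast and stromal markers, a cell type rich in TIMPs, summed to 44.3 to 48.1 and 49.8 to 55.5 CPM, without overlap. These 3 tools called 0 of 7 tested (2 at an unadjusted p under 0.05), and none of the 8 was at 0 counts. The 2 were Col3a1 (log2 fold change 0.73 ± 0.22, SE, edgeR adjusted p = 0.11) and Col1a1 (0.23 ± 0.09, SE, edgeR adjusted p = 0.23), both higher without overlap. The log2 fold changes of Pdgfra (-0.06 ± 0.40, SE) and Pdgfrb (-0.29 ± 0.36, SE) were negative. Endothelial markers, for the main source of Plat, summed to 139 to 157 and 179 to 200.1 CPM. Pecam1 and Kdr were called higher among 4 tested (2.32% of all tested genes), and DESeq2 and limma-voom called 1 each. Pecam1 (means of 71.2 and 103 CPM) and Kdr (40.1 and 49.1 CPM) made up most of the endothelial sum. The log2 fold changes of Cdh5 (0.53 ± 0.29, SE) and Vwf (0.10 ± 0.09, SE) did not pass. Vwf had means of 35.5 and 38.0 CPM, but Cdh5 only 1.09 and 1.57 CPM. Tek (0 to 3 counts in a library) and Emcn (2 to 10) were too low to test. Dendritic cell markers summed to 149 to 158 and 60.5 to 70.1 CPM, with Itgax and Siglech called lower among 5 tested (1.54% of all tested genes). Itgax, which macrophages also express, made up most of that sum (means of 149 and 62.9 CPM). The log2 fold change of Siglech was -1.64 ± 0.35 (SE). Those of Flt3 (0.16 ± 0.34, SE), Zbtb46 (-0.10 ± 0.28, SE) and Clec9a (-0.67 ± 0.31, SE) did not pass. The part of these markers in the members' differences was not tested, and in bulk RNA a smaller number of cells of a type and less RNA per cell cannot be told apart. Granulocyte, mast cell and basophil, megakaryocyte, and T and B cell lists had 0 genes called by edgeR, DESeq2 or limma-voom, with 1 each at an unadjusted p under 0.05.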

How the data were processed

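RNA was sequenced from 6 macrophage libraries. A stranded mRNA kit was used on TRIzol-extracted RNA, per the labels' protocols. The build was GRCm39 and the tools were fastp, HISAT2 and StringTie, per the submitters' processing notes; the sources used here do not give versions, the annotation or the counting step. The values deposited by the authors are estimated counts per gene (23.3% to 26.6% of values above 0 are not whole, tolerance 1e-06), rounded here before testing. The authors' group means in the table served only to check the columns, and 0 columns of per-sample values were left unassigned.

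Genes were filtered with filterByExpr, scaled with TMM factors (0.985 to 1.02) and tested over the whole table with a two-sided quasi-likelihood F test with robust dispersions (edgeR 4.0.16, R 4.3.3; Benjamini-Hochberg adjustment). CPM values are counts over TMM-scaled totals, SEs are the log2 fold change over the square root of F, and levels per kilobase use the gene length in the table. Fits with DESeq2 1.42.0, limma 3.58.1, other scalings and filters, a replicate block and each library left out were alternatives. The length-trend fit (lowess on log2 length, span 0.3) and the fit without 2 libraries were added after seeing the data. The test was also run on counts simulated from the fit itself. These held neither an outlying library nor a length trend, so that run does not bear on the calls given here. Transcript similarity used BLAST+ 2.17.0 on GENCODE M21. Motifs were chosen with the windows in view.

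The members, lists and alternatives were chosen with earlier results of these data known. Named genes are all members, from each list up to 3 called genes, by smallest p (2 where none was called), the partners Plg, Plgrkt, Lrp1, Mmp9, Mmp14 and Adam17, and the 3 nearest profiles of each called member. Serpinb6a, Timp4, Itgb2, Mmp13, Mmp25, Serpinb6c, Thbd, Syn1 and Syn3 were named after their values were seen. A gene of the partner lists is not reported here and is left out of their counts.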

Additional observations from a re-analysis of the deposited data

How the results depend on the processing

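The direction of all 7 tested members held under the 17 alternatives (16 for Serpinb2, which the filter of a mean count of at least 50 removed), except that Timp3 turned to -0.043 without IL-4+CGRP replicate 3. The count of members called higher was 1, and 0 without IL-4 replicate 1, 2 or 3 (leave-one-out range 0 to 1; Timp1 log2 fold change 0.77 to 1.08). The count called lower was 1, with a leave-one-out range of 0 to 2, and was 2 without both IL-4 replicate 1 and IL-4+CGRP replicate 2, where Plaur stood at -0.31. It was 0 with upper quartile factors (Serpinb6b log2 fold change -0.36), library totals alone (-0.34), DESeq2 (-0.36), limma-voom (-0.36) and a non-robust dispersion fit (-0.36). Left out singly, libraries gave -0.39 to -0.34 for Serpinb6b and -0.31 to -0.23 for Plaur. The labels do not say whether equal replicate numbers mark paired samples. Deviations of same-numbered libraries correlated at -0.19, -0.18 and 0.13, and not every library correlated best with its own number. IL-4 replicate 1 and IL-4+CGRP replicate 2, in which short genes ran high, correlated at 0.29. With 3 libraries a group, these values cannot settle whether samples were paired. With the replicate number as a block, 1 member was higher and 0 lower (Serpinb6b -0.36, edgeR adjusted p = 0.14), with 2 partner genes lower and 176 genes higher and 86 lower over the table. Of the lower partner calls, those of Anxa2, Itga5 and Itgb2 ended there too (edgeR adjusted p = 0.088, 0.13 and 0.20). Partner genes called higher numbered 6 there beside 8, and the Mmp13 call was among those that ended (edgeR adjusted p = 0.052).

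Over all tested genes 307 were higher and 204 lower. With no count filter these were 584 and 434, and without both libraries 1066 and 1187. With the length trend removed 440 were higher and 428 lower, and with library totals alone 354 and 143. Leaving out 1 library gave 140 to 915 higher and 80 to 950 lower, the largest counts being those without IL-4+CGRP replicate 2. Of partner genes, 8 were higher (5 to 12 in the leave-one-out fits, from 5 without IL-4 replicate 2 to 12 without IL-4+CGRP replicate 2) and 5 lower. The number lower was 3 with library totals alone, 8 with the length trend removed, 9 without both libraries and 2 to 7 in the leave-one-out fits. Mmp9 turned to 0.0086 with library totals alone, 0.060 with limma-voom, 0.016 with the replicate block, 0.35 without IL-4 replicate 1 and 0.34 without both libraries. The causes were not tested. Depth limits Plat, at 2 to 8 counts in a library.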
